A study of Mus musculus with 32 samples.

Results

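The genes described here carry Mrpl or Mrps symbols, which stand for proteins of the large or small subunit of the mitochondrial ribosome. They were taken as every probe whose identifier maps to a mouse symbol of that form, and a gene was kept if its brightest probe was well above background on 4 or more of the 32 arrays. Of 78 protein-coding genes with such a symbol, all had a probe and 77 met the rule (48 Mrpl and 29 Mrps genes), out of 14857 genes that met it across the array. Mrpl21 was well above background on no array and was left out. A set of 70 members was well above background on every array. Counts of Mrpl and Mrps genes follow the symbol. They therefore hold Mrps36, which is not a ribosomal subunit, and Mrps30, which belongs to the large subunit, as Mrps genes.

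Transcript levels were measured on one-colour Agilent microarrays in 8 groups of 4 mouse C57Bl/6 samples. In culture, a Pparg experiment and a Gyk experiment each had control and knockdown samples. From mice, Pparg control and knockout samples came from animals at room temperature and from animals exposed to cold. Pparg is the nuclear receptor that directs adipocyte differentiation, and Gyk in the labels stands for glycerol kinase (Gk in the gene table). The labels call all samples preadipocytes and give the culture samples a room temperature treatment. They name no agent, promoter or Cre line for the knockdown or knockout, and no age. Nothing in them tells whether a group's 4 arrays stem from 4 cultures or animals, so every p-value here is set against a spread between arrays that may be only technical. The series title asks how Pparg controls the inducibility of brown adipocytes by way of glycerol kinase.

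Mitochondria keep a ribosome of their own, which translates the few messages of the mitochondrial genome into core subunits of the respiratory chain and ATP synthase. Its RNAs come from the mitochondrial genome, but all of its proteins are encoded in the nucleus, made in the cytosol and imported. Some members have bacterial homologues and others were added in the evolution of mitochondria. Brown adipocytes are packed with mitochondria, whose respiration is turned to heat by the uncoupling protein Ucp1, so that these cells need much mitochondrial translation.

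Many promoters of the family share short motifs, and 5 are printed as examples: Mrpl34, Mrpl12 and Mrpl37 fell in every Pparg comparison, with 1 ETS, NRF1 or YY1 motif each, and Mrpl17 and Mrpl33 passed the test in none, with an ETS motif in both and an NRF1 motif in Mrpl17. Sequences are from RefSeq, build GRCm38.p6, 250 bases before to 50 after the transcription start, and 68 of the 77 members had an entry. Capitals mark matches, on either strand, to the ETS motif bound by GABPA (CCGGAAG), the NRF1 motif (GCGCA and GCGC with any base between them) or the YY1 motif (AAGATGGCG).
Mrpl34, chr8:71464676-71464975, strand +: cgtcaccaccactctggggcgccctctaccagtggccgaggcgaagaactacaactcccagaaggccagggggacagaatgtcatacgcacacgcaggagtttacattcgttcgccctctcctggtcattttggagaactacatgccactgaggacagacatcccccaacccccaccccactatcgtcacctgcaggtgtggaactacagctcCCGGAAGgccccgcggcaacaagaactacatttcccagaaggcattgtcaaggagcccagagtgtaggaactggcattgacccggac
Mrpl12, chr11:120484387-120484686, strand +: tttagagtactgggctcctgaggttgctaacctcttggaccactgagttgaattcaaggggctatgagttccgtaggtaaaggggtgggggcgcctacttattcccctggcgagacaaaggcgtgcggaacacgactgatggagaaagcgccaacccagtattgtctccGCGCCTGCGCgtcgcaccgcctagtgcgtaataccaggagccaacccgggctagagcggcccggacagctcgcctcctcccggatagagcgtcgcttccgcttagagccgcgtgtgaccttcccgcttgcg
Mrpl37, chr4:107066817-107067116, strand -: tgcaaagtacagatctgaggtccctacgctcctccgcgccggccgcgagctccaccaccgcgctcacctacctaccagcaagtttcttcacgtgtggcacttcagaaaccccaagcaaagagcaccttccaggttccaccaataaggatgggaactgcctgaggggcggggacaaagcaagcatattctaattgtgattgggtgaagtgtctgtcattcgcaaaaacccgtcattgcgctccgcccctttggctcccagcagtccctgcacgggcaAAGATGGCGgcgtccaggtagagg
Mrpl17, chr7:105811038-105811337, strand -: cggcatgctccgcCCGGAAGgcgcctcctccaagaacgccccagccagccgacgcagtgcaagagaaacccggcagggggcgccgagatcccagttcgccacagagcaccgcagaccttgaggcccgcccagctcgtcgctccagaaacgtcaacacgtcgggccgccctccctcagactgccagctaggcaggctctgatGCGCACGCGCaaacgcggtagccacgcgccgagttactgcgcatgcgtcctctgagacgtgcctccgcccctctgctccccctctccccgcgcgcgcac
Mrpl33, chr5:31613701-31614000, strand +: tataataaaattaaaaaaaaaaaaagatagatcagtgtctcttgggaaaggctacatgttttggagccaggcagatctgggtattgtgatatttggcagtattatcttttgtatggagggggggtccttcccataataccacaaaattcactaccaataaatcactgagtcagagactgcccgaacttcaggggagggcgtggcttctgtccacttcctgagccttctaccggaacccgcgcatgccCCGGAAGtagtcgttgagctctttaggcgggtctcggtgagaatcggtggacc

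The ETS motif stood in the promoter of 25 of 68 members (36.8%), against 9.93% of all 27025 genes with a promoter entry. The NRF1 motif stood in 13 members (19.1%, against 5.19%) and the YY1 motif in 8 (11.8%, against 1.64%). The Sp1 motif (GGGCGG) stood in 34 of 68, against 38.2% of all genes. A direct repeat of the kind bound by PPAR receptors (AGGTCA repeated in the same direction after any 1 base) was found in 0 members and in 0.0481% of all genes, and the ERR motif (TCAAGGTCA) in 0 members and in 0.466%. Motifs overlapped one another in 2 of the 74 member windows. The ETS motif stood in 10 of 29 members that fell in all 3 Pparg comparisons (34.5%) and in 7 of 18 that fell in 1 or 0 of them (38.9%). A match is a description of letters in this window and says nothing about binding.

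Levels below are log2 signals minus the 75th percentile of the same array, so they compare samples for 1 gene and not genes with each other. Array brightness, given as that percentile, ranged from 141 to 808 units, and Gyk knockdown arrays 3 and 4 were the dimmest. The number of arrays limits the precision, and 6 member values were left out as outlying spots. Every experiment had its own scan day and 2 slides, with controls and targeted samples on each slide. Pparg itself stood at 6.16 ± 0.187 (SD, n = 4) in culture controls and 4.24 ± 0.158 in the knockdown. In mice the single Pparg probe went the other way, at 5.38 ± 0.131 in room temperature controls and 7.46 ± 0.0726 on arrays labelled knockout, and at 5.83 ± 0.477 and 7.96 ± 0.0695 in the cold. The labels do not say which part of the gene was deleted, or whether this probe lies in it, so mouse groups are called labelled knockout, and every direction drawn from them rests on that label. Gk stood at 0.37 ± 0.0809 in the controls of its own experiment and -2.03 ± 0.889 in the knockdown. Each of these Pparg differences, and the Gk difference, separated all arrays of both groups (exact permutation p = 0.0286, 2-sided, the smallest that 4 against 4 arrays allow).

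The tissue markers bear on what the samples hold. Each of 6 adipocyte markers was well above background on some array of every group. On all 4 arrays 5 of them were so in Gyk culture controls and both mouse control groups, and 6 in the other groups. Their summed linear level (relative to the array's 75th percentile) was 716 to 862 in Pparg culture controls and 264 to 354 in the knockdown. It was 1170 to 1510 against 615 to 656 in mice at room temperature, and 1270 to 1390 against 574 to 830 in the cold. Of 6 adipocyte markers, 6 passed as lower in the Pparg knockdown and 4 in each mouse comparison. The others had positive values in mice, up to 0.56 at room temperature and 0.64 in the cold. Summed brown adipocyte markers, Ucp1 among them, were 475 to 615 against 153 to 201 in the Pparg culture groups, 2790 to 3850 against 1200 to 1480 at room temperature and 2390 to 2550 against 730 to 1500 in the cold. They were also lower in the Gyk knockdown (245 to 357 against 440 to 588), so samples labelled preadipocytes carried markers of mature brown adipocytes in all groups. Among these markers, Elovl3 was well above background on no array of the Pparg knockdown or the Gyk knockdown. Summed preadipocyte and fibroblast markers were 3.63 to 4.12 in Pparg culture controls against 6.3 to 6.89 in the knockdown, and 21.3 to 23.9 against 25.4 to 39.5 in the cold. At room temperature they overlapped, at 25.9 to 30.4 in controls and 17.5 to 31.9 on arrays labelled knockout, where 5 of 6 markers had a negative value and 1 passed, as higher. Macrophage markers summed to 13.9 to 16.3 in cold controls and to 21.2 to 36.5 on cold arrays labelled knockout, where 5 of 5 on the array passed the test as higher. Of 6 endothelial markers, 5 were lower on arrays labelled knockout at room temperature, where their sum was at most 12.8 against 15 to 20.9 in controls. In culture, endothelial Tie1, Tek and Emcn and the macrophage genes Lyz2 and Mrc1 were well above background on no array of either Pparg group. Skeletal muscle markers summed to at most 185 on cold control arrays 1 and 2, which stood highest, to 20.2 on cold array 4 labelled knockout and to 18.5 on room temperature array 1 labelled knockout. They stayed at or below 2.37 on the other 12 mouse arrays. Lymphocyte markers stayed between 0.301 and 1.52 on all arrays. The part of these cell types in the results below was not tested, and in bulk RNA fewer cells of a type and less RNA per cell cannot be told apart.

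The median of the 77 members on each array fell in every experiment in which Pparg was targeted. It was 4.1 ± 0.0785 (SD, n = 4) in Pparg culture controls and 3.7 ± 0.0744 in the knockdown. In mice at room temperature it was 4.05 ± 0.0616 in controls and 3.61 ± 0.102 on arrays labelled knockout. In the cold it was 4.3 ± 0.124 and 3.71 ± 0.139. In none of these experiments did an array of one group reach the range of the other. In the Gyk experiment it was 4.14 ± 0.1 in controls and 3.98 ± 0.106 in the knockdown, and the ranges overlapped (4.03 to 4.23 and 3.89 to 4.1).

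**Figure D1:**
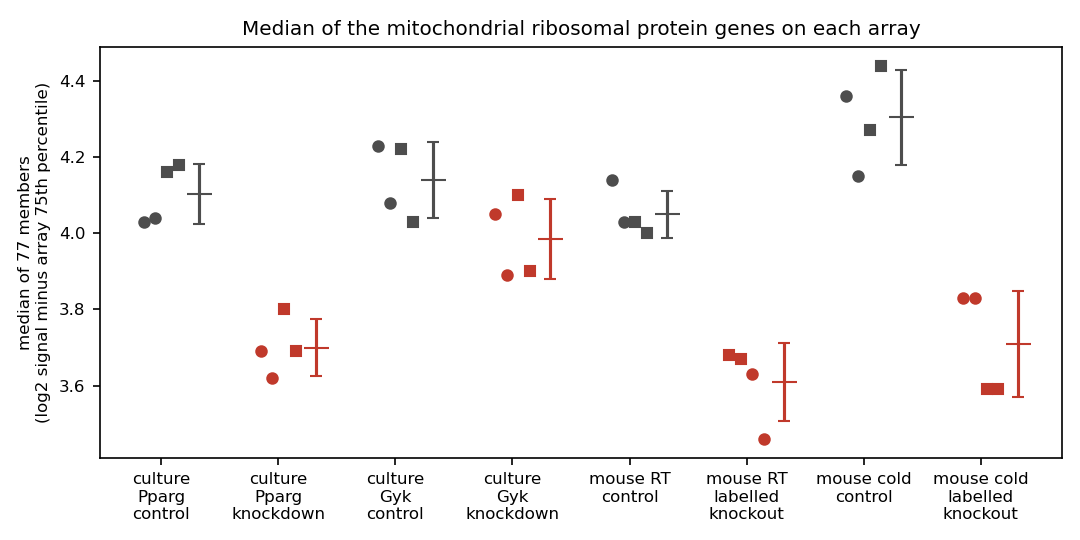
Median over the 77 members on each array (y axis, log2 signal minus the array's 75th percentile) by group (x axis). Circles and squares are arrays of the first and second slide of an experiment, grey for controls and red for knockdown or labelled knockout, and the bar beside them is the mean with its SD; the red points of the Pparg culture and both mouse experiments lie below all grey points of the same experiment, whereas those of the Gyk experiment overlap.

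Knockdown of Pparg in culture lowered many members and raised none. With limma and Benjamini-Hochberg adjustment over the 12843 genes tested, 48 of 77 members were lower and 0 higher at an adjusted p under 0.05, where 17% of all genes were lower and 17.8% higher. At an unadjusted p under 0.05 the counts were 57 lower and 0 higher, given without the share of all genes. The median change was -0.45 over the members and 0.01 over all genes, and 75 of 77 members had a negative value. In 49 members every knockdown array lay below every control array, as it did in 17.9% of all genes. Medians within the first and second slide were -0.45 and -0.44. Quantile normalization gave 39 lower members and normexp correction 32, where 16.8% and 11.8% of all genes were lower. These arrays deviated together by number and slide, and with the replicate number as a block 71 members were lower, where 28.7% of all genes were.

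Mrpl15, a large-subunit protein with a bacterial homologue, fell most in the knockdown. Its level was 4.62, 4.62, 4.9 and 4.84 on the control arrays and 3.71, 3.73, 3.93 and 3.85 on the knockdown arrays. The knockdown arrays lay well apart from the controls, a 1.92-fold fall (log2 -0.94 ± 0.096 SE, limma adjusted p = 0.000119). Mrpl47, which sits near the exit of the peptide tunnel, ranged from 4.41 to 4.83 in controls and from 3.62 to 4.07 in the knockdown (log2 -0.8, limma adjusted p = 0.00268). Mrpl51, a mitochondria-specific protein, fell from 6.67 ± 0.0933 (SD, n = 4) to 5.94 ± 0.118 (limma adjusted p = 0.000279). Mrpl37, also specific to mitochondria, read 1.57, 1.42, 1.71 and 1.4 in controls and 0.71, 0.76, 0.84 and 0.81 in the knockdown, so no arrays overlapped (1.67-fold lower, limma adjusted p = 0.000296). Mrpl12, the stalk protein that recruits translation factors, read 6.31, 6.34, 6.63 and 6.63 in controls and 5.6, 5.57, 5.98 and 5.85 in the knockdown. The higher values in both groups are those of the second slide, and the groups did not overlap (1.65-fold lower, limma adjusted p = 0.00241).

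In mice at room temperature the same direction held on the arrays labelled knockout. There 54 of 77 members were lower and 0 higher (limma, 13230 genes tested), where 25.1% of all genes were lower and 19.5% higher. The median was -0.42 over the members and -0.05 over all genes. In 58 members the groups were fully apart with the arrays labelled knockout below, against 24% of all genes, and medians within the slides were -0.4 and -0.43. Under quantile normalization 44 members were lower and 3 (Mrpl33, Mrpl50 and Mrps6) were higher, where 21.1% of all genes were lower. With normexp background correction 35 were lower and 0 higher, where 13.3% of all genes were lower. The arrays labelled knockout were brighter than the controls (75th percentile 499 to 605 against 293 to 408 units), and the part of this in the changes was not tested.

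Mrpl20, a large-subunit protein with a bacterial homologue, fell most at room temperature. It read 7.1, 7.43, 7.69 and 7.56 in controls and 6.42, 6.48, 6.37 and 6.44 on arrays labelled knockout. The latter lay within a narrow band below all controls, a 2.02-fold fall (log2 -1.02 ± 0.13 SE, limma adjusted p = 0.000411). Mrpl15 again fell, from 3.72, 3.81, 3.91 and 3.88 to 2.95, 2.81, 3.06 and 2.87 (1.88-fold, limma adjusted p = 0.000103), but its other probe gave -0.3 there, beside -0.71 in the knockdown and -0.74 in the cold. Mrps10, a small-subunit protein near the mRNA path, fell from 3.56 ± 0.0848 (SD, n = 4) to 2.69 ± 0.115 (1.83-fold, limma adjusted p = 0.000145). Mrpl37 fell from 1.43 ± 0.159 to 0.59 ± 0.116 (1.79-fold, limma adjusted p = 0.000427). Mrps25, a small-subunit protein, fell by 0.83 on the log2 scale on its brightest probe (limma adjusted p = 0.000325), but its other probe gave -0.15.

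In the cold most members were again lower. On arrays labelled knockout, 57 of 77 members were lower and 0 higher (limma, 12982 genes tested), where 18.2% of all genes were lower and 13.7% higher. The median was -0.61 over the members and -0.05 over all genes, 76 of 77 values were negative, and 65 members were fully apart, against 20.3% of all genes. The slides differed here, with medians of -0.45 on the first and -0.82 on the second. Under quantile normalization 43 were lower and Mrpl23 was higher, where 15% of all genes were lower. Without the 3 arrays with high muscle markers (cold controls 1 and 2 and cold array 4 labelled knockout) the median stayed at -0.63 with 76 of 77 values negative, while 22 members passed, where 10.5% of all genes were lower. That fit holds 2 control arrays and 3 arrays labelled knockout.

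Mrpl34, a small protein of the large subunit with a bacterial homologue, fell most in the cold. It read 4.89, 4.54, 4.79 and 5.09 in controls and 3.87, 3.93, 3.28 and 3.47 on arrays labelled knockout, where the second slide gave the lower pair. The fall was 2.28-fold (log2 -1.19 ± 0.19 SE, limma adjusted p = 0.00243). Mrpl50, a mitochondria-specific protein, read 4, 3.35, 4.08 and 4.47 in controls and 2.93, 2.97, 2.77 and 2.65 on arrays labelled knockout (2.21-fold lower, limma adjusted p = 0.00596). Mrps27, a small-subunit protein of the pentatricopeptide type, fell from 2.04 ± 0.213 (SD, n = 4) to 0.96 ± 0.357 (2.11-fold, limma adjusted p = 0.00454). Mrpl37 fell from 1.3 ± 0.167 to 0.26 ± 0.301 (2.06-fold, limma adjusted p = 0.003). Mrpl18, the homologue of the bacterial protein that binds 5S ribosomal RNA, fell from 3.07 ± 0.203 to 2.03 ± 0.173 (2.05-fold, limma adjusted p = 0.00154).

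Set side by side, 32 members were lower in the Pparg knockdown and in mice labelled knockout at both temperatures, where 6.54% of the 11598 genes tested in all 3 were. Of these 32, 20 were Mrpl and 12 Mrps genes. A further 24 members were lower in 2 of the 3 comparisons, 15 in 1 and 6 in 0. These counts are from fits without a block, and with the replicate number as a block in the knockdown, a combination chosen after seeing the data, 44 members were lower in all 3 and 4 in 0. Median centring gave 28 members lower in all 3, quantile normalization 21, normexp correction 20, and the fit without the arrays with high muscle markers 13. For these settings and for the block, the share of all genes lower in all 3 was not computed. By the mean of the 3 changes of the brightest probe the order was led by Mrpl15 (-0.94, -0.91 and -1.03 in the knockdown, at room temperature and in the cold), Mrpl20 (-0.7, -1.02 and -0.94), Mrpl37 (-0.74, -0.84 and -1.04) and Mrpl34 (-0.71, -0.64 and -1.19). The 3 comparisons share no arrays. Across the 77 members their changes correlated with Pearson's r of 0.54 (knockdown and room temperature), 0.54 (knockdown and cold) and 0.46 (room temperature and cold), against 0.36, 0.51 and 0.6 across all genes. These are correlations across genes of the same probes, and genes are not independent replicates.

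**Figure D2:**
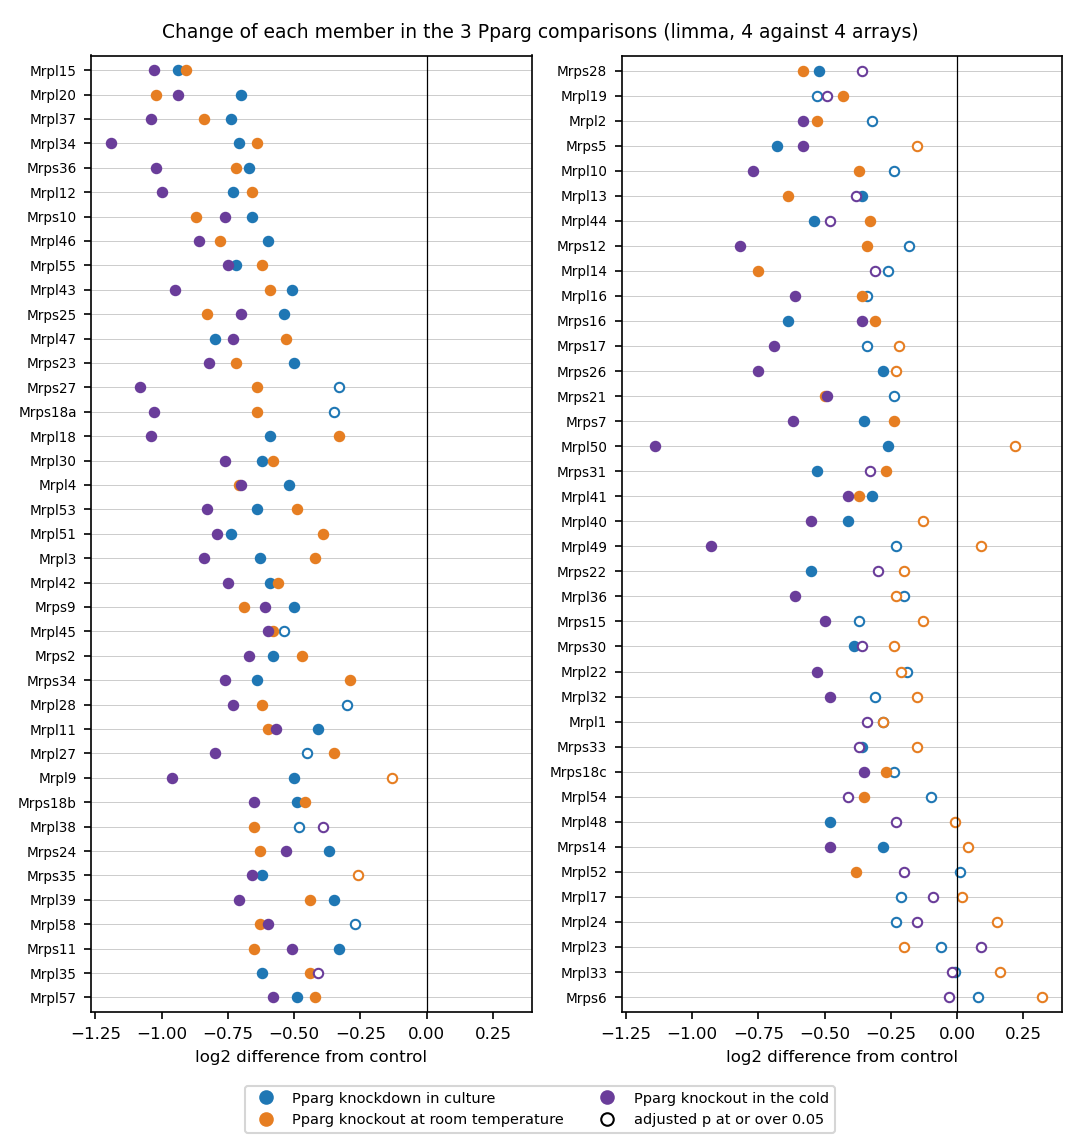
Log2 difference from control (x axis) of each of the 77 members (y axis, ordered by the mean of the 3 values) in the Pparg knockdown and in mice labelled knockout at either temperature. Filled points passed the limma test at an adjusted p under 0.05; nearly all points lie left of 0, with Mrpl15 at the top and Mrpl17, Mrpl24, Mrpl23, Mrpl33 and Mrps6 grouped around 0 at the bottom.

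The 6 members that passed in none of the 3 were Mrpl1, Mrpl17, Mrpl23, Mrpl24, Mrpl33 and Mrps6, named because their number is small. With the replicate block in the knockdown Mrpl17 (-0.21, limma adjusted p = 0.00685) and Mrpl24 (-0.23, limma adjusted p = 0.0137) were lower there, which left Mrpl1, Mrpl23, Mrpl33 and Mrps6. Mrpl17, Mrpl23 and Mrpl24 lie around the exit of the peptide tunnel. Mrpl33 read 6.6, 6.68, 6.85 and 6.99 in Pparg culture controls and 6.73, 6.56, 6.89 and 6.9 in the knockdown, so the groups overlapped. In the cold it read 6.81, 6.84, 6.9 and 7.03 in controls and 6.88, 6.99, 6.79 and 6.84 on arrays labelled knockout. Mrps6, a small-subunit protein with a bacterial homologue, had values of 0.08, 0.32 and -0.03. At room temperature it read 4.17, 4.15, 4.03 and 3.53 in controls and 4.36, 4.28, 4.26 and 4.26 on arrays labelled knockout, so it was higher there without overlap (limma adjusted p = 0.0987). Mrpl17 had -0.21, 0.02 and -0.09. Its knockdown arrays (2.29 to 2.44) lay just below the controls (2.47 to 2.66) without overlap (limma adjusted p = 0.0572), and its mouse groups overlapped. Mrpl24 likewise had -0.23 in the knockdown, without overlap (limma adjusted p = 0.0556). A p that misses the threshold does not show that these genes did not differ. Mrpl1, a protein of the flexible L1 stalk, is a separate case. Its single probe read -3.08, -3.07, -5.45 and -5.29 on the Pparg culture controls, so it split by slide and not by group, and it was well above background on 2 of 4 arrays in each Pparg culture group.

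**Figure D3:**
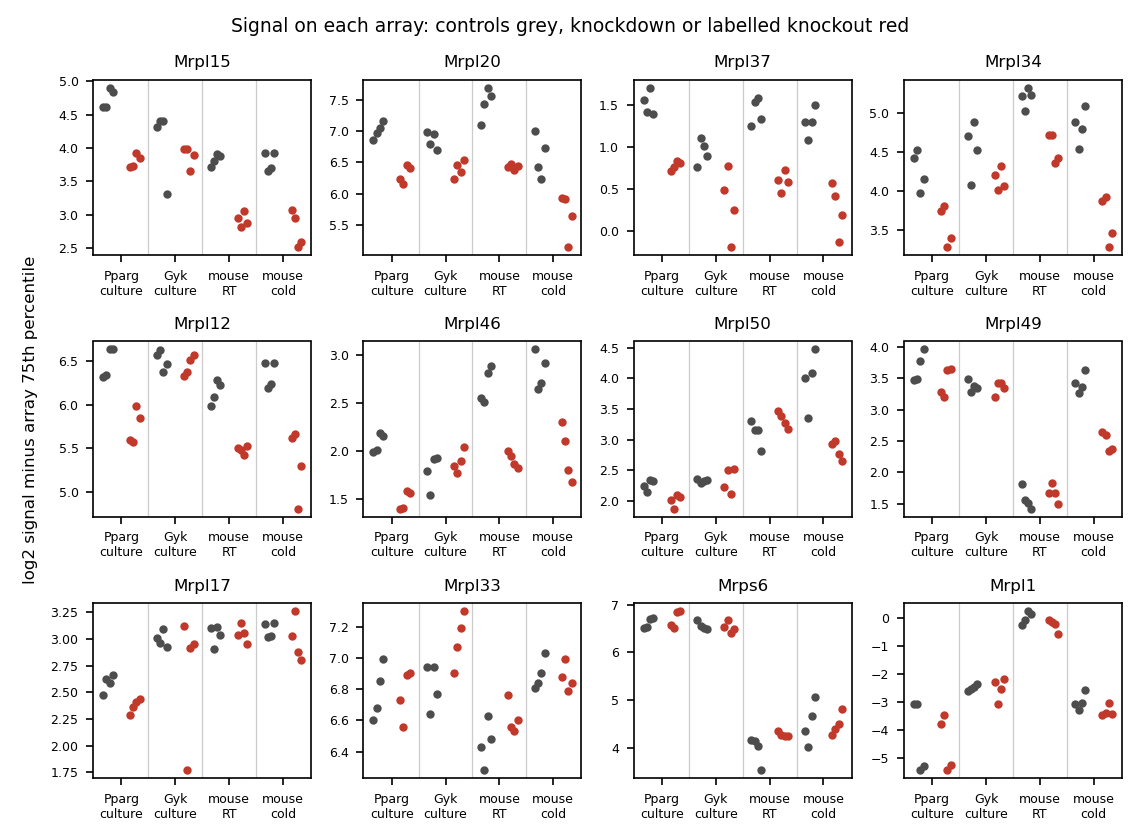
Signal on each array (y axis, log2 minus the array's 75th percentile) for 12 members in the 4 experiments (x axis), with controls in grey and knockdown or labelled knockout in red. Mrpl15, Mrpl20, Mrpl37, Mrpl34, Mrpl12 and Mrpl46 have all red points below the grey ones in the Pparg culture and both mouse experiments, Mrpl50 and Mrpl49 have them below in the cold and not at room temperature, and Mrpl33 and Mrpl1 overlap in every Pparg experiment.

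Among members picked for their roles, the 3 stalk proteins all fell in mice. Mrpl10, Mrpl45, Mrpl58, Mrps12 and Mrps27 missed the threshold in the knockdown without a block, and with the replicate number as a block each was lower there (limma adjusted p = 0.00447, 0.000636, 0.013, 0.0323 and 0.00243). Mrpl12 fell in all 3 comparisons (-0.73, -0.66 and -1, limma adjusted p = 0.00241, 0.000594 and 0.00648). Mrpl11, at the base of the stalk, fell by -0.41, -0.6 and -0.57 (limma adjusted p = 0.0419, 0.000536 and 0.0088). Mrpl10, which anchors Mrpl12 copies, fell in mice (-0.37 and -0.77, limma adjusted p = 0.0132 and 0.00589), and its value in the knockdown was -0.24 (limma adjusted p = 0.28). Mrpl45, which holds the ribosome to the inner membrane, fell in mice by -0.58 and -0.6 and had -0.54 in culture (limma adjusted p = 0.0893). Mrpl44, a protein with a ribonuclease fold, fell in the knockdown and at room temperature (-0.54 and -0.33), and its value in the cold was -0.48 (limma adjusted p = 0.0537). Mrpl58, a peptidyl-tRNA hydrolase that became part of the ribosome, fell in mice by -0.63 and -0.6, with -0.27 in the knockdown (limma adjusted p = 0.207).

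Of the Mrps genes picked for their roles, Mrps12, which takes part in decoding, fell in mice by -0.34 and -0.82 and had -0.18 in the knockdown (limma adjusted p = 0.346). Mrps27 fell in mice by -0.64 and -1.08, with -0.33 in the knockdown (limma adjusted p = 0.156). Mrps30, which despite its name belongs to the large subunit, fell in the knockdown by -0.39 (limma adjusted p = 0.0429), with -0.24 and -0.36 in mice (limma adjusted p = 0.0918 and 0.0593). Mrps36, now known as a subunit of the 2-oxoglutarate dehydrogenase complex and not of the ribosome, fell in all 3 (-0.67, -0.72 and -1.02, limma adjusted p = 0.00208, 0.00278 and 0.00227). In room temperature mice Mrps36 read 6.33, 6.13, 6.09 and 6.61 in controls and 5.76, 5.55, 5.48 and 5.48 on arrays labelled knockout, with no overlap.

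Each part of the ribosome held members that fell, where 17%, 25.1% and 18.2% of all genes were lower in the knockdown, at room temperature and in the cold. Large-subunit members with bacterial homologues were lower in 14, 20 and 20 of 29 genes in these comparisons, and mitochondria-specific ones in 14, 16 and 15 of 21. For the small subunit the counts were 10, 11 and 14 of 16 with homologues and 9, 6 and 7 of 10 without. The 5 stalk genes were lower in 3, 5 and 4 cases, the 7 genes of the central protuberance in 4, 5 and 5, and the 9 genes at the tunnel exit in 4, 4 and 5. Median changes of the tunnel exit genes were -0.26, -0.21 and -0.53 and those of the stalk -0.41, -0.49 and -0.77. No test of one class against another was made. For 22 members a second probe was well above background, and it had the sign of the brightest probe in 21 of 22 genes in the knockdown, 19 at room temperature and 21 in the cold. Among members that had passed, the probes disagreed in sign for Mrpl39 in the knockdown (-0.35 and 0.3), Mrps7 at room temperature (-0.24 and 0.31) and Mrps25 in the cold (-0.7 and 0.27).

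Other genes of mitochondrial translation are read against the share of all genes that was lower (17%, 25.1% and 18.2% in the knockdown, at room temperature and in the cold). Of 5 ribosomal proteins named otherwise, 1, 3 and 1 were lower in these comparisons, which is near that share in the knockdown and the cold, and Ptcd3, a pentatricopeptide protein of the small subunit, fell by 0.68 in the knockdown. Of genes for ribosome assembly and rRNA modification, 12 of 25 were lower and 0 higher in the knockdown, 10 lower and 2 higher of 26 at room temperature, and 12 lower and 1 higher of 26 in the cold (medians -0.34, -0.18 and -0.33). Mtg1, a GTPase of assembly, fell by 0.68 in the knockdown, and Nsun4, an rRNA methyltransferase, by 0.57 there and 0.84 at room temperature. Mpv17l2, a mitochondrial membrane protein linked to assembly, rose by 0.94 at room temperature. Rbfa, a factor of small-subunit maturation, fell by 0.99 in the cold. Of translation factors, 8, 7 and 8 of 15 were lower and 0, 1 and 0 higher. Guf1, the back-translocase, fell by 0.96 in the knockdown, and Taco1, the activator of cytochrome oxidase subunit translation, by 0.71 there and 0.96 in the cold. Mrrf, the recycling factor, fell by 0.82 at room temperature.

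Of the mitochondrial aminoacyl-tRNA synthetases and related enzymes, 9 of 19 were lower and 1 higher in the knockdown, 8 and 2 at room temperature and 7 and 0 in the cold. Qrsl1, a subunit of the enzyme that makes glutaminyl-tRNA, fell in all 3 (-0.69, -0.82 and -1.18), whereas its partner Gatb rose by 0.96 in the knockdown. Aars2, the alanyl-tRNA synthetase, changed by -1 at room temperature and -0.99 in the cold. Of genes for mitochondrial DNA replication and transcription, 7 of 14, 7 of 15 and 8 of 14 were lower and 0 higher. Tfam, which packages and transcribes mitochondrial DNA, fell by 0.85 in the knockdown and 0.53 at room temperature. Of regulators of mitochondrial biogenesis, 5 of 11, 6 of 11 and 3 of 10 were lower. Ppara fell in all 3 (-1.49, -2.51 and -2.17). Ppargc1a, the main inducible coactivator, fell by 2.12 at room temperature but not in the cold, where its value was 0.13. Myc rose by 2.18 in the cold. Gabpa, whose motif is in the printed promoters of Mrpl34, Mrpl17 and Mrpl33, fell in all 3 (-0.69, -0.67 and -0.71). It also fell in the Gyk knockdown (-0.86, limma adjusted p = 0.0315), where 1 member passed. The part of Gabpa in the members' changes was not tested.

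The cytosolic ribosome had few lower genes. Of all genes 17%, 25.1% and 18.2% were lower in the knockdown, at room temperature and in the cold, and 17.8%, 19.5% and 13.7% higher. Of 76 cytosolic ribosomal protein genes, 4 were lower and 0 higher in the knockdown, 7 lower and 16 higher at room temperature, and 1 lower and 39 higher in the cold (medians -0.07, 0.13 and 0.35). The 16 higher at room temperature were near the share of all genes. The direction in the knockdown turned with the scaling (medians -0.21 with median centring and 0.03 with quantile normalization). In mice normexp correction left 3 and 0 higher, where 1133 of 13230 and 1129 of 12982 genes were. Other mitochondrial genes fell alongside the members. Of 80 respiratory chain and ATP synthase genes, 49 were lower and 1 higher, 63 and 5, and 44 and 2 (medians -0.49, -0.49 and -0.4). Under quantile normalization 31 were lower at room temperature and 27 in the cold (medians -0.18 and -0.24), where 21.1% and 15% of all genes were. Of 23 Timm and Tomm genes of protein import, 17, 19 and 20 were lower (medians -0.56, -0.61 and -0.74). The ribosome was not tested against these other mitochondrial lists.

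**Figure D4:**
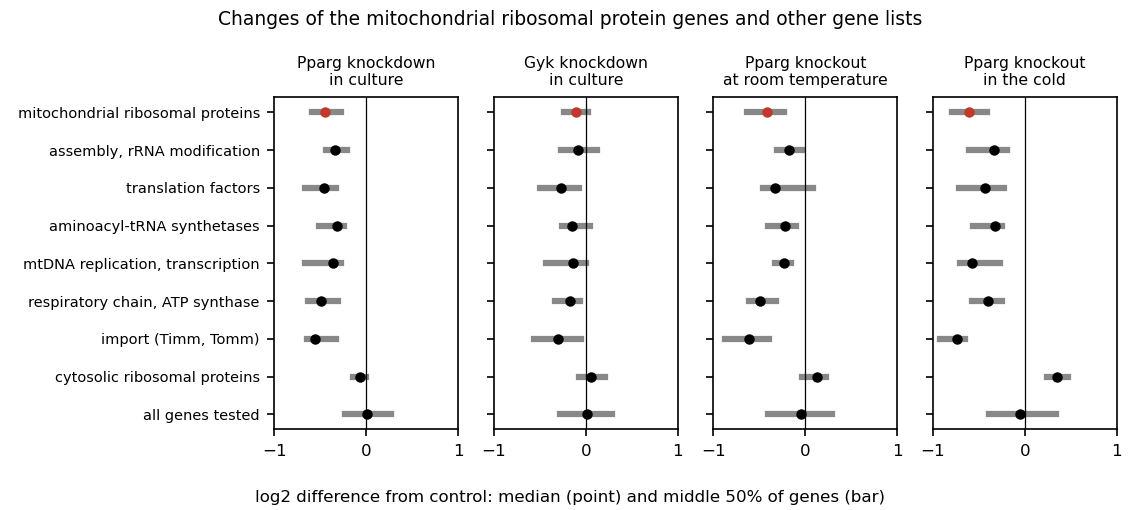
Median (point) and middle 50% (bar) of the log2 differences from control (x axis) for gene lists (y axis) in the 4 knockdown and labelled knockout comparisons. The mitochondrial ribosomal proteins, in red, lie left of 0 in all panels (medians -0.45, -0.11, -0.42 and -0.61), and the cytosolic ones lie near or right of 0 (-0.07, 0.06, 0.13 and 0.35), with a sign in culture that turns with the scaling.

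Knockdown of glycerol kinase left nearly all members short of the threshold. Of 77 members 1 was lower and 0 higher (limma, 12220 genes tested), where 4.14% of all genes were lower and 4.5% higher. At an unadjusted p under 0.05, 8 were lower and 1 higher, counts given without the share of all genes. The median was -0.11, beside 0.01 for all genes, and 56 values were negative. In 5 members every knockdown array lay below every control, against 11% of all genes. The member that passed, Mrpl20, read 6.98, 6.79, 6.96 and 6.69 in controls and 6.24, 6.45, 6.34 and 6.53 in the knockdown, with no overlap (log2 -0.47 ± 0.12 SE, limma adjusted p = 0.049). Its call was lost with any single array left out: 0 members passed without any one of the others, and without knockdown array 1 the 1 member that passed was not Mrpl20. The 3 members with the largest values did not pass. Mrpl32, a large-subunit protein, had -1.36 ± 1 (SE, limma adjusted p = 0.419), where knockdown array 4 read -2.59 against 2.02 to 2.3 on the other knockdown arrays. Mrps36 had -0.62 (limma adjusted p = 0.154) and Mrps5 -0.62 (limma adjusted p = 0.0948).

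Whether the Pparg knockdown lowered a member more than the Gyk knockdown did was tested over all 16 culture arrays. The difference passed for 6 members, all more negative with Pparg, and for 0 in the other direction (limma, 13119 genes tested), where 6.52% of all genes passed as more negative and 6.25% as more positive, so in this fit the share of members was near that of the array. The median difference was -0.29. The members were Mrpl46, a protein of the central protuberance (-0.69, limma adjusted p = 0.00619), Mrpl12 (-0.67, limma adjusted p = 0.0169), Mrpl55 (-0.59, limma adjusted p = 0.0049), Mrpl40 (-0.57, limma adjusted p = 0.00634), Mrps10 (-0.54, limma adjusted p = 0.0135) and, named as the last of them, Mrpl30 (-0.51, limma adjusted p = 0.0343). Mrpl46 read 1.99, 2.01, 2.19 and 2.16 in Pparg controls and 1.4, 1.41, 1.59 and 1.56 in the knockdown. In the Gyk experiment it read 1.79, 1.54, 1.92 and 1.93 in controls and 1.85, 1.77, 1.9 and 2.04 in the knockdown, which overlap. The count was 10 without the dim Gyk knockdown arrays 3 and 4 (7.73% of all genes more negative), 11 without Gyk knockdown array 1 (9.03%) and 1 with normexp correction (3.37%). With the slide as a block it was 19, against 12.8% of all genes, and with the replicate number as a block 12, against 8.76%.

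Cold against room temperature moved members both ways, as it did genes across the array. Each temperature had its own slides and scan day, so temperature and scan day cannot be told apart. In control mice 14 members were lower and 34 higher in the cold (limma, 14065 genes tested), where 25.1% of all genes were lower and 41.6% higher. In mice labelled knockout 18 were lower and 27 higher, where 24.5% of all genes were lower and 41.1% higher. As shares of the members these are 18.2% and 44.2% in controls and 23.4% and 35.1% in mice labelled knockout. They were near those of all genes. The members' medians were 0.22 and 0.05, beside 0.23 and 0.24 for all genes. Median centring gave 7 lower and 55 higher in controls, where 2342 of 14065 genes were lower and 7651 higher. Normexp correction turned the split in mice labelled knockout to 21 lower and 7 higher, with a median of -0.11. In that fit 2089 of 14065 genes were lower and 4572 higher, with a median of 0.33. Both genotypes shared 13 members lower and 23 higher, and the share of all genes that did so was not computed. The cold differences of the genotypes correlated at Pearson's r = 0.9 over the members. Over 10232 genes well above background on all Pparg arrays r was 0.84, so sharing was not particular to the members.

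Of the 5 largest falls in each genotype, Mrpl1, Mrpl16, Mrpl19 and Mrpl45 were in both lists, and of the 5 largest rises Mrpl49 and Mrps9 were. Mrpl1 fell by 3.01 in controls and 3.07 in mice labelled knockout, from -0.25, -0.07, 0.25 and 0.15 to -3.07, -3.29, -3.03 and -2.57 in controls. Mrpl16, Mrpl45 and Mrpl19 changed by -1.13, -1.13 and -1.12 in controls and by -1.38, -1.16 and -1.17 in mice labelled knockout. Mrpl20 fell by 0.85 in controls and Mrpl18 by 1.49 in mice labelled knockout. Mrpl49 rose by 1.84 in controls and 0.82 in mice labelled knockout, and Mrps9 by 1.39 and 1.47. Mrpl9, Mrpl27 and Mrps17 rose by 1.18, 1 and 0.99 in controls, and Mrpl14, Mrpl2 and Mrpl41 by 1.07, 0.69 and 0.57 in mice labelled knockout. Second probes did not bear all of these out: that of Mrpl49 gave 0.13 and -0.46, and that of Mrpl41 gave -0.18 and -0.48. All values named here passed the limma test on the brightest probe.

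The same probes differed between slides within 1 culture group. The first Pparg culture slide held replicates 1 and 2 and the second replicates 3 and 4. A difference between slides thus cannot be told apart from one between those samples. Mrpl1 was lower by -2.29 on the second slide of Pparg culture controls than on the first, Mrpl19 by -1.19, Mrpl16 by -0.73, Mrpl45 by -0.65 and Mrpl18 by -0.48. Over the 77 members, this slide difference correlated with the cold difference at Pearson's r = 0.75 in control mice and 0.78 in mice labelled knockout (0.62 and 0.67 without Mrpl1), and at 0.49 and 0.5 over 10232 genes well above background on all Pparg arrays. The culture and mouse arrays share no samples, only the probes. The part of the slides in the cold changes was not tested.

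**Figure D5:**
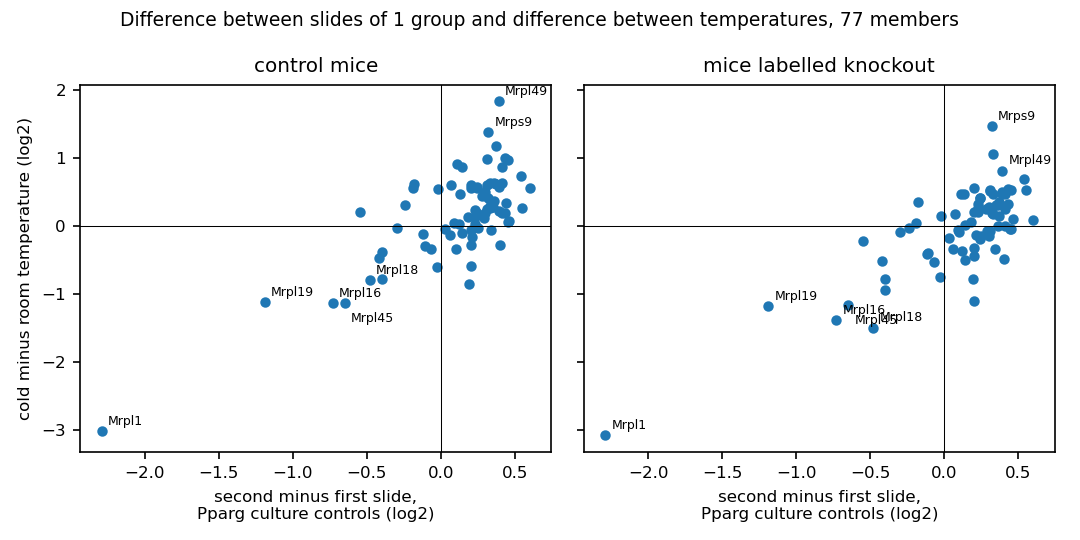
Cold minus room temperature (y axis, log2) in control mice (left) and mice labelled knockout (right) against the difference between the second and the first slide of the Pparg culture controls (x axis, log2), 1 point per member. Mrpl1, Mrpl19, Mrpl16, Mrpl45 and Mrpl18 lie low on both axes, and Pearson's r was 0.75 and 0.78.

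The difference between the fall in the cold and the fall at room temperature passed for 4 members and all were more negative in the cold (limma, 14065 genes tested). Over all genes 7.2% passed as more negative and 6.13% as more positive, so this share too was near the background. The median over the members was -0.19, beside -0.01 for all genes. For Mrpl50 the difference was -1.36 ± 0.26 (SE, limma adjusted p = 0.00562). It read 3.3, 3.16, 3.15 and 2.81 in room temperature controls and 3.47, 3.39, 3.27 and 3.18 on arrays labelled knockout, so at room temperature it was not lower, whereas in the cold the groups were apart. For Mrpl49, a mitochondria-specific protein, the difference was -1.02 (limma adjusted p = 0.00204). It read 1.82, 1.56, 1.52 and 1.42 against 1.67, 1.83, 1.68 and 1.49 at room temperature and 3.43, 3.26, 3.36 and 3.63 against 2.64, 2.6, 2.34 and 2.38 in the cold. Second probes of Mrpl50 and Mrpl49 gave changes of 0.44 and -0.06 at room temperature and -0.83 and -0.65 in the cold.

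For Mrpl9, a large-subunit protein with a bacterial homologue, the difference was -0.83 (limma adjusted p = 0.0197), with changes of -0.13 at room temperature and -0.96 in the cold. Without the arrays with high muscle markers it was -0.65 (limma adjusted p = 0.136, range 0.00654 to 0.136 over the alternatives). For Mrpl18 it was -0.7 (limma adjusted p = 0.0161, range 0.0101 to 0.0648 over the alternatives). The count was 11 with median centring, where 10.2% of all genes were more negative. With the slide as a block it was 9 (8 more negative and 1 more positive), where 10.2% of all genes were more negative. It was 7 without cold control array 2 (8.68% of all genes more negative) and 9 without cold array 1 labelled knockout (8.39%).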

How the data were processed

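RNA was hybridised to one-colour Agilent arrays, 1 per sample. Per the labels, TRIzol RNA was Cy3-labelled, and Agilent Feature Extraction 10.7.3.1 is named in the submitters' processing notes. Per the file headers, the deposited intensity of each spot is background-subtracted and detrended within the array, not normalized between arrays. The authors' series table repeated these intensities exactly.

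Here intensities were log2-transformed and the array's 75th percentile subtracted. Control spots (1377 of 44397) and outlying spots were dropped and spots of a probe averaged. RefSeq names matched 27242 of 39429 probes, for 20665 genes, and each gene kept its brightest probe. A gene was tested if well above background on 4 or more arrays of the fit, with limma 3.58.1 (R 4.3.3, data.table; lmFit, eBayes, 2-sided, Benjamini-Hochberg over all genes, threshold 0.05). Fits held 1 experiment (8 arrays), all 16 mouse or all 16 culture arrays. Pparg and Gk were compared by an exact permutation test.

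Named members were, per comparison, the 5 largest falls and rises past the threshold (or the 3 largest values where fewer than 3 passed), plus 10 role genes, and up to 3 genes past the threshold per other list. Members and lists were chosen with earlier results of these data known. Same-numbered arrays of the Pparg culture groups deviated together (residual correlations 0.703 to 0.767, limit 0.1), as did other arrays of a slide (0.69 to 0.725); the other experiments did not meet the limit in every pair. On simulated data with 200 genes changed by 1 on the log2 scale, 80% were recovered for the Pparg knockdown (12792 genes) and 49% for the difference between temperatures (14021 genes). Of the calls made there, 3.61% and 6.67% were false. The simulated noise was independent between arrays, unlike that of the Pparg culture arrays. Smaller changes, such as the members' medians, were not simulated. Alternatives varied scaling, background correction, filter, probes, blocks and arrays.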

Additional observations from a re-analysis of the deposited data

Results flagged for a closer look

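Of 173 groups of 4 arrays examined for the members named in the text and for their median, 8 (4.62%) had 1 array far from the other 3, near the 1 in 20 that chance gives. The widest gap was that of Mrpl32, at -2.59 on Gyk knockdown array 4 against 2.02 to 2.3 on the others. Mrps30 read 2.32 on Gyk control array 3 (others 3.18 to 3.35) and Mrps36 read 4.14 on Gyk control array 4 (others 4.9 to 4.99). Mrpl9 read 3.27 on cold control array 4 (others 3.62 to 3.68), and Mrpl11 read 5 on room temperature control array 2 (others 5.18 to 5.21). On cold array 3 labelled knockout Mrpl45 read 1.73 (others 1.49 to 1.52) and Mrpl1 read -3.03 (others -3.46 to -3.39). Mrpl55 read 3.82 on Pparg knockdown array 1 (others 3.68 to 3.7).

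Effects that differed between experiments by a test of the difference itself were those of Mrpl46 (-0.69), Mrpl12 (-0.67), Mrpl55 (-0.59), Mrpl40 (-0.57), Mrps10 (-0.54) and Mrpl30 (-0.51) for the Pparg minus the Gyk knockdown. For the labelled knockout in the cold minus at room temperature they were those of Mrpl50 (-1.36), Mrpl49 (-1.02), Mrpl9 (-0.83) and Mrpl18 (-0.7).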

How the results depend on the processing

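Counts of members below are out of 77, and the number of all genes that passed changed with the setting too. Leaving out 1 array at a time gave 34 to 46 members for the Pparg knockdown, 0 to 1 for the Gyk knockdown, 49 to 55 for mice labelled knockout at room temperature, 43 to 61 for those in the cold, 42 to 47 and 39 to 45 for cold against room temperature in controls and in mice labelled knockout, 4 to 9 for the difference between temperatures and 5 to 11 for the difference between knockdowns. In those fits 13.8% to 16.2% of all genes were lower in the Pparg knockdown and 1.07% to 4.79% in the Gyk knockdown. On arrays labelled knockout 21.8% to 24.3% were lower at room temperature and 12.9% to 18.1% in the cold. Counts for cold against room temperature hold both directions, and in the main fit the members' shares were near those of all genes. For the Gyk knockdown the count was 0 with median centring, normexp correction, no filter, the slide block or the replicate block. With the mean of all probes it was 3. Normexp correction gave 35 at room temperature, 28 for cold in mice labelled knockout and 1 for the difference between knockdowns. The difference between temperatures gave 11 with median centring and 9 with the slide block. The difference between knockdowns gave 19 with the slide block, 12 with the replicate block and 10 without Gyk knockdown arrays 3 and 4. The labelled knockout in the cold gave 22 without the arrays with high muscle markers, an alternative chosen after seeing the data. With the replicate block the Pparg knockdown gave 71 (28.7% of all genes lower) and mice labelled knockout 44 and 56 (21.3% and 19.6%). Cold against room temperature gave 47 and 47, where 3595 and 3504 of 14065 genes were lower and 5932 and 5861 higher. Among the members named for their large changes, this block changed no call except that of Mrpl18 in the difference between temperatures (limma adjusted p = 0.0648). No member named for its large change and past the threshold reversed its direction under the alternatives run. Median centring shifted the median of all genes from 0.23 to 0.58 for cold in controls. The Gyk knockdown arrays had 75th percentiles of intensity down to 141 units, and without arrays 3 and 4 of that group 1 member passed, as with them, but not the same one.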
